A study of Homo sapiens with 4 samples.

Results

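The EGFR family receptors and ligands described here are 10 genes, found by symbol among the 12912 rows of the deposited count table: the receptors EGFR, ERBB2 and ERBB3, the ligands TGFA, AREG, EREG and HBEGF, the ligand sheddase ADAM17, and the receptor inhibitors ERRFI1 and LRIG1. All 10 symbols had 1 row each. All 10 passed the filter on low counts, ERBB3 only through 786-O-VHL, since the filter asks for about 0.628 CPM in 2 libraries and 0 of its 786-O-Ctrl libraries reached that level. 786-O is a human line derived from a clear cell renal cell carcinoma, and it makes no working VHL protein. RNA was sequenced from 2 libraries of 786-O-Ctrl, which the labels call VHL-null, and from 2 libraries of 786-O-VHL, in which VHL was put back with a retrovirus that carries HA-tagged wild-type VHL. Both sublines were grown in RPMI1640 with fetal bovine serum, and by the labels both are the triple-reporter (TR) versions, which also carry a retroviral GFP, luciferase and thymidine kinase reporter. Whether 786-O-Ctrl carries an empty vector is not given in the sources used here. Each group is 1 subline, so an effect of VHL cannot be told apart from other differences between the sublines. A change in every cell and a change in the makeup of the subline cannot be told apart either, and in bulk RNA fewer cells that make a transcript cannot be told apart from less RNA per cell.

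EGFR, ERBB2 and ERBB3 are receptor tyrosine kinases that signal as pairs. TGFA, AREG, EREG and HBEGF are made as membrane-bound precursors, are released by metalloproteases such as ADAM17, and bind EGFR; EREG and HBEGF also bind ERBB4. Ligand binding starts the RAS-ERK and PI3K-AKT cascades, which are shut off by receptor degradation and by inhibitors such as ERRFI1 (also called MIG6) and LRIG1. In renal carcinoma cells, TGFA is a known target of the hypoxia-inducible factor HIF2, which VHL marks for degradation, and TGFA made by the cells acts back on their own EGFR.

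The libraries summed to 22141263 and 15714166 counts in 786-O-Ctrl, named here the deeper and the shallower library because the table gives both the same replicate number. Those of 786-O-VHL replicates 1 and 2 summed to 2807779 and 16114120. Levels are given in CPM, the counts of a gene scaled to the same total in every library, with TMM factors that align libraries through the bulk of their genes, and 3 counts, the limit that a count of 0 allows, correspond to 1.02 CPM in 786-O-VHL replicate 1 and to between 0.142 and 0.199 CPM in the others (counting error only). VHL itself, the restored gene, had 903 and 661 counts in 786-O-Ctrl against 525 and 2748 counts in 786-O-VHL, or 42.9 and 43.9 CPM against 178 and 163 CPM. Of 15 markers of renal tubule and carcinoma lines 14 had a row and 13 were tested: 2 rose (CDH6 and NNMT), 6 fell (among them PAX8 and VIM) and 5 did not pass. Their summed level was 4000 to 4020 CPM in 786-O-Ctrl and 2690 to 2820 CPM in 786-O-VHL, with VIM alone at 1684 and 730 CPM on average. Summed markers of other cell types stayed at or below 1.33 CPM for endothelial cells (3 of 6 with a row) and 1.02 CPM for leukocytes (1 of 6). Those of fibroblasts (3 of 6) were at 10.4 to 11.4 CPM in 786-O-Ctrl and 14.6 to 15.3 CPM in 786-O-VHL, and both erythroid markers had no row. The part of these differences in the results was not tested. A missing row, here and below, does not by itself show that a gene was not expressed.

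Between the sublines the members differed in opposite directions. Rises and falls, here and below, are differences of 786-O-VHL from 786-O-Ctrl. EGFR, AREG and EREG mRNA rose, TGFA, LRIG1, HBEGF and ERBB2 mRNA fell, and ERRFI1 and ADAM17 did not pass the test. ERBB3 was also called higher, but a gene that enters the test only through its high group had to differ, and it is described by its counts. The 7 calls among the other 9 genes, or 8 of 10 with ERBB3, at an edgeR false discovery rate (FDR) under 0.05, stand beside 64.5% of all 12335 tested genes, with 32.6% called higher and 31.9% lower, so the number of calls is no result about the family. The libraries of the 2 groups did not overlap for 8 of the 10 members and for 80% of all genes tested. The sizes of the changes differed from gene to gene: the median absolute log2 fold change was 0.85 over the members without ERBB3, 1.20 with it and 0.43 over all genes tested. The members were chosen with earlier results of these data known, so the larger median is no result about the family. Past a 4-fold change with an FDR under 0.01 was AREG, and also ERBB3 with the same limit on its call, against 4.46% of all genes (2.92% higher and 1.54% lower), and EREG was just under the 4-fold limit at 3.83-fold. With 2 libraries against 2, no two-sided exact permutation test can give a p under 0.333, so each FDR rests on the spread that edgeR shares across genes.

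**Figure D1:**
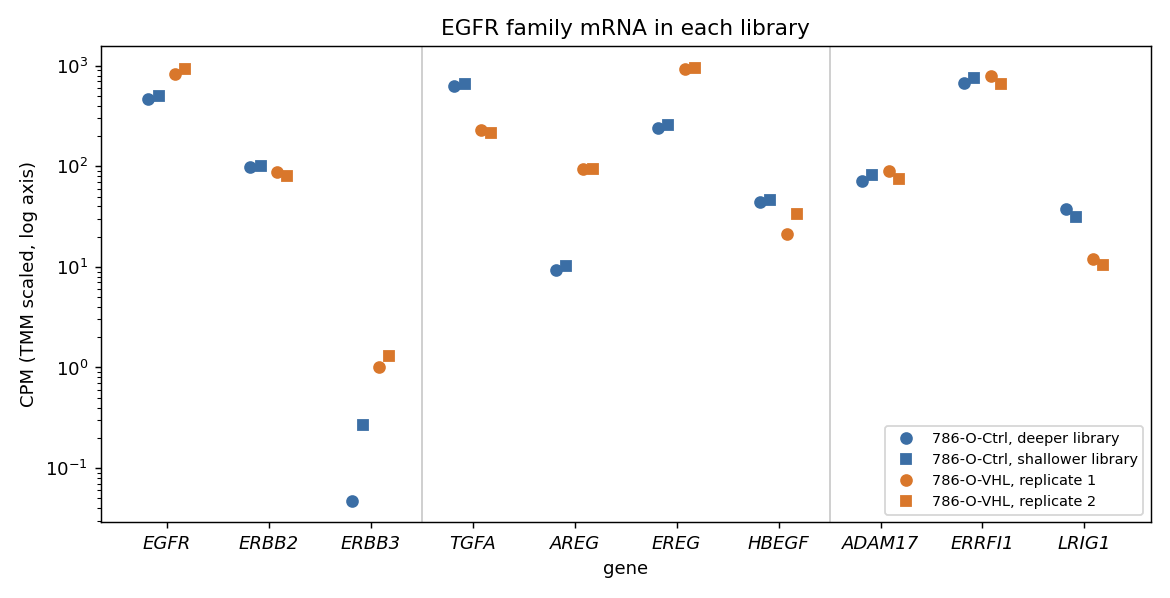
CPM of the 10 genes (log axis) in each of the 4 libraries, with receptors, ligands, and sheddase and inhibitors set apart by vertical lines; blue marks 786-O-Ctrl, orange 786-O-VHL. AREG sits near 10 CPM in both 786-O-Ctrl libraries and near 95 CPM in both 786-O-VHL libraries, whereas ERRFI1 and ADAM17 overlap between the groups.

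EGFR was per exon kb the most abundant receptor, and its mRNA rose. EGFR (ENSG00000146648.18; chr7:55086710-55279321 of GRCh37, plus strand) was at 473 and 505 CPM in 786-O-Ctrl (deeper, then shallower library, here and throughout) against 829 and 921 CPM in 786-O-VHL (replicate 1, then 2). Both 786-O-VHL libraries lay above both 786-O-Ctrl libraries. The means were 489 ± 23.2 and 875 ± 65.5 CPM (SD, n = 2 each), a change of 0.85 on the log2 scale (standard error 0.0639, edgeR FDR = 3.04e-12), or 1.80-fold. The antisense gene EGFR-AS1 covers 1.17% of the exon bases of EGFR and had no row in the table.

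ERBB2, the receptor without a ligand of its own that pairs with the others, changed in the opposite direction and by little. ERBB2 (ENSG00000141736.13; chr17:37844167-37886679 of GRCh37, plus strand) was at 99.0 and 99.8 CPM in 786-O-Ctrl against 86.8 and 80.1 CPM in 786-O-VHL. The groups did not overlap, with a change of -0.28 on the log2 scale (standard error 0.0700, edgeR FDR = 0.00103). The call was lost with scaling by library totals alone (log2 fold change -0.15, edgeR FDR = 0.0689), after thinning all libraries to the shallowest (-0.15, edgeR FDR = 0.249) and without 786-O-VHL replicate 2 (-0.20, edgeR FDR = 0.0936). MIEN1 and PGAP3, on the opposite strand, cover 6.93% of the exon bases of ERBB2, and the strand setting of the counting is not given in the sources used here. MIEN1 was at 17.8 ± 0.595 CPM in 786-O-Ctrl and at 29.8 ± 3.25 CPM in 786-O-VHL (SD, n = 2 each).

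ERBB3, a receptor with weak kinase activity that binds neuregulins, was close to the limit of detection. ERBB3 (ENSG00000065361.15; chr12:56470583-56497289 of GRCh37, plus strand) had 1 and 4 counts in 786-O-Ctrl against 3 and 22 counts in 786-O-VHL, which is 0.0475, 0.266, 1.02 and 1.31 CPM. The fitted log2 fold change was 3.09 (standard error 0.699, edgeR FDR = 0.000346), which depends on edgeR's prior count and on a filter that the gene passed through 786-O-VHL alone. The 25 counts of 786-O-VHL over the 5 of 786-O-Ctrl gave a ratio of rates of 9.12, with an exact 95% interval of 3.43 to 30.5. The interval covers counting error only and makes no allowance for that filter, so it is no separate support for a rise. The log2 fold change was 2.18 without the deeper and 4.46 without the shallower 786-O-Ctrl library, and without 786-O-VHL replicate 2, which held 22 of the counts, the gene no longer passed the filter. ERBB4, the fourth receptor of the family, had no row in the table, which does not show that it was not expressed.

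Per kilobase of annotated exon, which allows levels of different genes to be compared, EGFR was at 30.7 ± 1.46 CPM per kb in 786-O-Ctrl and 54.9 ± 4.11 CPM per kb in 786-O-VHL (SD, n = 2 each). ERBB2 was at 9.63 ± 0.0588 and 8.09 ± 0.465 CPM per kb. EGFR thus held 75.6% and 76.6% of the counts per exon kb of the 3 receptors in 786-O-Ctrl against 85.9% and 88.0% in 786-O-VHL. The counts of ERBB2 over those of EGFR, a ratio within each library that no scaling between libraries touches, were 0.209 and 0.198 in 786-O-Ctrl against 0.105 and 0.0869 in 786-O-VHL.

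Among the ligands, TGFA and HBEGF fell while EREG and AREG rose. The promoters of TGFA, LRIG1, EREG and AREG are shown because these 4 genes had the largest changes among the members with more than a few counts. Each line gives the 250 bases before the start of the gene's canonical transcript, 5′ to 3′ on the gene's own strand. They come from the RefSeq promoter table of GRCh38.p14, with the coordinates in GRCh37 found by an exact match of the sequence. The AREG bases matched chromosome 4 at 2 places, and the place at the start of AREG is given. The TGFA window lies inside the gene as annotated, and the LRIG1 window partly so, because other transcripts start further upstream. Capitals mark the hypoxia response element core, ACGTG or GCGTG on either strand.
TGFA, minus strand, chr2:70780959-70781208: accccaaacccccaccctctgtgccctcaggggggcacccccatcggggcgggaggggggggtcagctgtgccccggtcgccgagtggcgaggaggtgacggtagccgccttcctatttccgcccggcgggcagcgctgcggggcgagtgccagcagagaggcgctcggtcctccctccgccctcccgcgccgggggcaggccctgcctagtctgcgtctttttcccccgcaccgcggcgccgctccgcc
LRIG1, minus strand, chr3:66551447-66551696: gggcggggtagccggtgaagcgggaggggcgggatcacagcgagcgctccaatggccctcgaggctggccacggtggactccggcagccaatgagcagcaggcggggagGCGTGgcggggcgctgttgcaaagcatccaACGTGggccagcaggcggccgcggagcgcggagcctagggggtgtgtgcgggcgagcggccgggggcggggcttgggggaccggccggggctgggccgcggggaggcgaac
EREG, plus strand, chr4:75230612-75230861: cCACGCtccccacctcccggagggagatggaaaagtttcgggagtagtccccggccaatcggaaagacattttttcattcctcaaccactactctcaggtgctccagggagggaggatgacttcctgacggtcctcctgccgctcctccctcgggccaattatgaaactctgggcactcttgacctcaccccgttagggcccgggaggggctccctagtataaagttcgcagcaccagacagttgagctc
AREG, plus strand, chr4:75310603-75310852: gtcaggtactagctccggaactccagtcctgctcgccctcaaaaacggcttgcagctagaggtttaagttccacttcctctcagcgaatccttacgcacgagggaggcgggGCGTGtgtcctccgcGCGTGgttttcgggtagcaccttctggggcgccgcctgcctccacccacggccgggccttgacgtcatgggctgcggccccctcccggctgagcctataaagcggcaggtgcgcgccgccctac
Promoter windows at the canonical transcript's start were found for 8 of the 10 members, all but ERBB2 and ERBB3. The core was found in 4 of these 8 windows (AREG, EREG, ADAM17 and LRIG1) and in 43.2% of the 35116 windows of that length in the RefSeq table, so that it was present in genes that rose, fell and did not pass the test. The TGFA, EGFR, HBEGF and ERRFI1 windows did not hold these letters. The AREG window also held TGACGTCA, a cyclic AMP response element, from base -65 to base -58 counted from that start, which 1.65% of all windows hold. The AP-1 letters TGACTCA or TGAGTCA were in none of the 8 windows and in 4.20% of all. A match is a run of letters and does not show binding.

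TGFA, transforming growth factor alpha, was the ligand with the largest fall. TGFA (ENSG00000163235.16; chr2:70674416-70781325 of GRCh37, minus strand) was at 631 and 655 CPM in 786-O-Ctrl against 230 and 213 CPM in 786-O-VHL. The groups were far apart next to their spread, with means of 643 ± 16.8 and 222 ± 12.5 CPM (SD, n = 2 each). This was a change of -1.55 on the log2 scale (standard error 0.0654, edgeR FDR = 9.32e-18), or 2.93-fold lower in 786-O-VHL. No annotated exon of another gene overlaps those of TGFA, EREG, AREG or HBEGF.

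HBEGF, heparin-binding EGF-like growth factor, fell as well, by an amount that depends on the library. HBEGF (ENSG00000113070.8; chr5:139712428-139726188 of GRCh37, minus strand) was at 44.3 and 45.8 CPM in 786-O-Ctrl against 21.0 and 33.4 CPM in 786-O-VHL, where the value of replicate 1 rests on 62 counts. Both 786-O-VHL libraries were below both 786-O-Ctrl libraries but differed widely from each other. This was a change of -0.56 on the log2 scale (standard error 0.111, edgeR FDR = 8.05e-05). It was -1.10 without 786-O-VHL replicate 2, -0.43 without replicate 1 and -0.90 after thinning.

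EREG, epiregulin, was per exon kb the most abundant of the 4 ligands in 786-O-VHL. EREG (ENSG00000124882.4; chr4:75230862-75254466 of GRCh37, plus strand) was at 239 and 255 CPM in 786-O-Ctrl against 928 and 959 CPM in 786-O-VHL. The groups did not overlap, and the replicates lay close together. The means of 247 ± 11.3 and 943 ± 22.3 CPM (SD, n = 2 each) gave a change of 1.94 on the log2 scale (standard error 0.0628, edgeR FDR = 3.19e-20).

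AREG, amphiregulin, had the largest fold change of the members with more than a few counts and was per exon kb the least abundant of the 4 ligands in 786-O-Ctrl. AREG (ENSG00000109321.11; chr4:75310853-75320722 of GRCh37, plus strand) was at 9.26 and 10.2 CPM in 786-O-Ctrl against 94.7 and 94.9 CPM in 786-O-VHL, from 195, 154, 279 and 1598 counts. The 786-O-VHL libraries were nearly equal, and both lay far above the 786-O-Ctrl libraries. This was a change of 3.29 on the log2 scale (standard error 0.0966, edgeR FDR = 3.62e-21), or 9.78-fold, which ranked 155 of the 12335 tested genes by absolute size. The level of AREG is uncertain, since GRCh37 holds a near-identical copy annotated as AREGB at chr4:75480629-75490481, to which the AREG transcript aligned over 100% of its length with 99.9% identity. AREGB had no row in the table, and how reads that match both copies were counted is not given in the sources used here. No other member had a second copy with at least 90% of the transcript aligned and 95% identity.

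**Figure D2:**
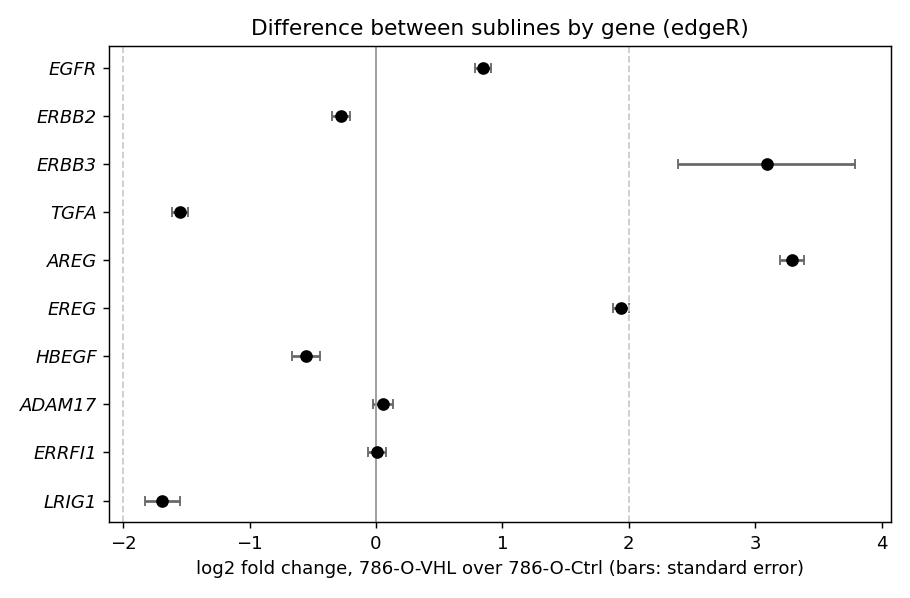
Log2 fold change of each gene, 786-O-VHL over 786-O-Ctrl, with bars for the standard error and dashed lines at a 4-fold change. AREG and ERBB3 lie past the upper dashed line and EREG just inside it, TGFA and LRIG1 lie between -1.55 and -1.69, and the bar of ERBB3, at 0.699, is the widest.

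The main EGFR ligand mRNA of the cells thus differed between the sublines. Of the summed counts per exon kb of these 4 ligands, TGFA held 67.3% and 66.8% in the 786-O-Ctrl libraries and 17.1% and 15.4% in the 786-O-VHL libraries. EREG held 21.9% and 22.4% against 59.3% and 59.9%. The share of AREG rose from 3.04% ± 0.119 to 20.8% ± 0.292 and that of HBEGF went from 7.73% ± 0.0645 to 3.28% ± 1.01 (SD, n = 2 each). EREG counts over TGFA counts, a ratio within each library, were 0.379 and 0.389 in 786-O-Ctrl against 4.03 and 4.51 in 786-O-VHL. The order of TGFA and EREG was the same in both libraries of a group and opposite between the groups.

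**Figure D3:**
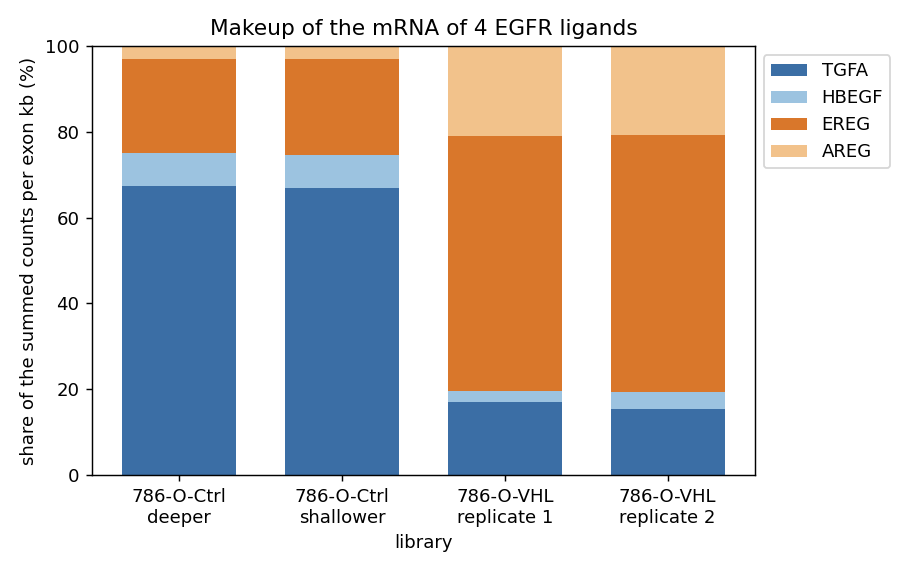
Share of TGFA, HBEGF, EREG and AREG in the summed counts per exon kb of these 4 ligands, 1 stacked bar per library. TGFA takes up 66.8% to 67.3% of the 786-O-Ctrl bars and 15.4% to 17.1% of the 786-O-VHL bars, where EREG takes up 59.3% to 59.9%.

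Of the 8 other receptors and ligands of the family, 4 had a row in the table, and ERBB4, EPGN, NRG3 and NRG4 had none. BTC, betacellulin, a ligand of EGFR and ERBB4, rose from 1.24 and 1.33 CPM in 786-O-Ctrl to 24.8 and 26.0 CPM in 786-O-VHL, a change of 4.32 on the log2 scale (standard error 0.203, edgeR FDR = 8.67e-17). BTC rested on 26, 20, 73 and 438 counts and was 3.25% ± 0.0520 of the counts per exon kb of all 8 ligands with a row in 786-O-VHL (SD, n = 2). NRG1, a neuregulin that binds ERBB3 and ERBB4, rose from 68.8 ± 1.83 to 116 ± 12.4 CPM (log2 fold change 0.80, edgeR FDR = 1.24e-10). NRG2, another neuregulin, rose from 5.27 ± 0.404 to 7.55 ± 1.08 CPM (log2 fold change 0.59, edgeR FDR = 0.0155). EGF itself was at 3.42 ± 0.330 CPM in 786-O-Ctrl and 3.18 ± 0.299 CPM in 786-O-VHL, with overlapping libraries (log2 fold change -0.18, edgeR FDR = 0.613).

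EREG, AREG and BTC are neighbors on chromosome 4, within 489 kb from 75230862 to 75719733 of GRCh37, and all 3 rose. Within 1 Mb on either side of this stretch, 13 other genes had a row, of which 12 were tested: 5 were higher, 3 were lower and 4 did not pass the test. Of all genes tested, 32.6% were called higher and 31.9% lower. The direction was mixed around the ligand genes, and these counts are no result about the stretch. CXCL8, the neutrophil chemokine interleukin-8, fell by 2.88 on the log2 scale (standard error 0.113, edgeR FDR = 1.91e-18). RASSF6, a RAS association domain protein, rose by 2.31 on that scale (standard error 0.294, edgeR FDR = 8.84e-08) and was the other large change. MTHFD2L, the nearest gene with a row before EREG, had a change of 0.19 on the log2 scale (standard error 0.178, edgeR FDR = 0.371). CXCL8 is the only one of these 3 on the pathway lists below; RASSF6 and MTHFD2L were chosen after their values were seen. AREG counts over EREG counts were 0.0388 and 0.0402 in 786-O-Ctrl against 0.102 and 0.0990 in 786-O-VHL, so the 2 neighbors did not rise in proportion.

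**Figure D4:**
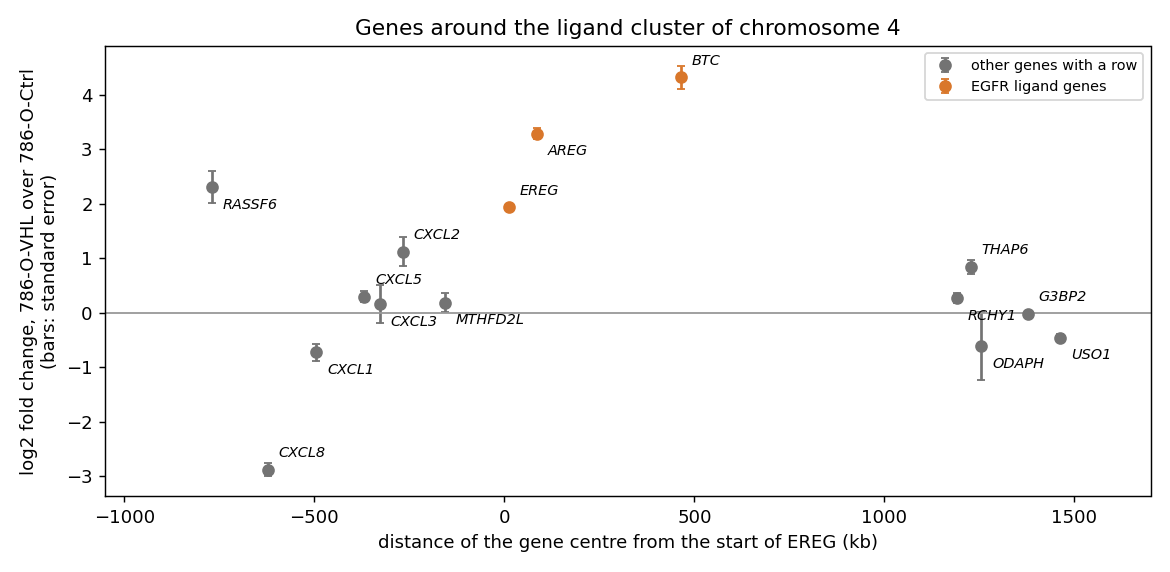
Log2 fold change, 786-O-VHL over 786-O-Ctrl, with bars for the standard error, of the 15 tested genes around EREG, AREG and BTC on chromosome 4, against the distance of each gene's centre from the start of EREG in kb. The 3 ligand genes in orange lie between 1.94 and 4.32, and the grey neighbors spread from -2.88 to 2.31.

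Of the regulators, the inhibitor LRIG1 fell. LRIG1, a transmembrane protein that promotes the degradation of EGFR family receptors (ENSG00000144749.13; chr3:66429221-66551687 of GRCh37, minus strand), was at 37.9 and 31.2 CPM in 786-O-Ctrl against 11.9 and 10.5 CPM in 786-O-VHL. The groups did not overlap. This was a change of -1.69 on the log2 scale (standard error 0.137, edgeR FDR = 1.38e-11), or 3.23-fold lower in 786-O-VHL. Exons of SLC25A26 on the opposite strand cover 37.9% of the annotated exon bases of LRIG1, and SLC25A26 had no row in the table. The strand setting of the counting is not given, so how reads from these bases were counted is not known. The level and the change of LRIG1 are uncertain to that extent. LRIG1 counts over EGFR counts were 0.0803 and 0.0617 in 786-O-Ctrl against 0.0143 and 0.0114 in 786-O-VHL.

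ERRFI1, a cytoplasmic inhibitor that binds the active kinase domain, was abundant and did not pass the test. ERRFI1 (ENSG00000116285.13; chr1:8064464-8086369 of GRCh37, minus strand) was at 673 and 758 CPM in 786-O-Ctrl against 790 and 663 CPM in 786-O-VHL. The groups overlapped and the log2 fold change was 0.0102 (standard error 0.0720, edgeR FDR = 0.911), with a sign that changed between processing alternatives. ADAM17, the protease that releases TGFA, AREG, EREG and HBEGF (ENSG00000151694.14; chr2:9628615-9696861 of GRCh37, minus strand), was at 72.0 and 81.2 CPM in 786-O-Ctrl against 90.2 and 75.2 CPM in 786-O-VHL. These overlapped too, with a change of 0.055 on the log2 scale (standard error 0.0809, edgeR FDR = 0.570), which passed at 0.19 (edgeR FDR = 0.0433) only with scaling by library totals alone. Opposite-strand genes cover 11.7% of the exon bases of ADAM17, among them IAH1, which was at 67.4 ± 0.440 and 73.0 ± 1.02 CPM (SD, n = 2 each). ERRFI1 counts over EGFR counts were 1.42 and 1.50 in 786-O-Ctrl against 0.954 and 0.719 in 786-O-VHL.

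Per kb of all annotated exons the order of the 10 genes differed between the groups. In 786-O-Ctrl it ran from ERRFI1 (171 ± 14.4 CPM per kb) and TGFA (131 ± 3.42) over EREG (43.2 ± 1.97), EGFR (30.7 ± 1.46), HBEGF (15.1 ± 0.351), ERBB2 (9.63 ± 0.0588) and AREG (5.94 ± 0.420) to LRIG1 (4.91 ± 0.680), ADAM17 (4.80 ± 0.409) and ERBB3 (0.0134 ± 0.0132), each as SD with n = 2. Of these neighbors only LRIG1 and ADAM17 overlapped between libraries. In 786-O-VHL the order was ERRFI1 (174 ± 21.6), EREG (165 ± 3.90), AREG (57.7 ± 0.108), EGFR (54.9 ± 4.11), TGFA (45.0 ± 2.54), HBEGF (9.11 ± 2.93), ERBB2 (8.09 ± 0.465), ADAM17 (5.18 ± 0.667), LRIG1 (1.59 ± 0.137) and ERBB3 (0.0992 ± 0.0174). There the libraries of ERRFI1 and EREG overlapped, as did those of AREG and EGFR and those of HBEGF and ERBB2. TGFA moved from above EGFR to below it, and AREG from below ERBB2 to above it. These 2 moves were also seen per kb of the longest annotated transcript, where other places in the order differed. In 786-O-Ctrl ERBB2 (20.2 CPM per kb) came before HBEGF (19.1) and ADAM17 (11.7) before AREG (7.90) and LRIG1 (6.44). In 786-O-VHL EGFR (88.3) came before AREG (76.8), and both ERBB2 (16.9) and ADAM17 (12.6) came before HBEGF (11.5). There the libraries of ADAM17 and HBEGF overlapped.

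The rest of the ErbB signaling pathway was followed through 110 genes in 8 lists grouped by role, of which 101 had a row and were tested. Of these, 44 were higher, 28 were lower and 29 did not pass, a share of 71.3% called beside the 64.5% of all genes, with a median log2 fold change of 0.17 against 0.02 over all genes. Of all genes called, 50.5% were higher in 786-O-VHL, and 62.1% with scaling by library totals alone, which moved the median of all genes by 0.133 on the log2 scale. With that scaling 54 of the pathway genes were higher and 15 were lower, so the balance of directions in these lists depends on it. The counts of each list below stand beside 32.6% of all genes called higher and 31.9% lower. The lists were chosen with earlier results of these data known, so their counts are no result about a list.

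Among 8 tested genes of shedding and ligand trafficking, 6 fell and 1 rose, with a median log2 fold change of -0.39. FRMD8 and RHBDF2 (iRhom2), which carry and stabilize ADAM17 on its way to the cell surface, fell by 0.82 and 0.67 on the log2 scale (edgeR FDR = 4.4e-09 and 8.62e-10). ADAM15 fell by 0.49, and ADAM10, the sheddase of EGF and BTC, was the 1 that rose, by 0.44. FRMD8 was at 57.7 ± 2.89 CPM in 786-O-Ctrl and 32.5 ± 0.841 CPM in 786-O-VHL, and RHBDF2 at 168 ± 3.08 and 105 ± 3.08 CPM (SD, n = 2 each). ADAM17 mRNA itself did not pass, as given above.

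Of 24 genes that promote or oppose receptor down-regulation, 10 rose, 7 fell and 7 did not pass, with a median of 0.10. Because the list mixes both kinds, these counts give no direction for that process. SOCS2, CBLB, a ubiquitin ligase of EGFR, and ERBIN, a binding partner of ERBB2, rose by 1.63, 1.30 and 0.99. HGS, which sorts ubiquitinated receptors on endosomes, fell by 1.29 (edgeR FDR = 2.41e-15), and DUSP3 and UBASH3B fell by 0.58 and 0.52. The adaptors had 8 that rose, 5 that fell and 6 that did not pass of 19, with GRB7 (1.27), GAB1 (0.77) and NCK1 (0.65) the largest rises and CRK (-0.47), EPS8 (-0.32) and SHC1 (-0.27) the largest falls in log2 fold change. GRB7 lies beside ERBB2 on the genome, and went the other way from it.

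Of 12 tested genes that drive or restrain the RAS-ERK cascade, 6 rose, 3 fell and 3 did not pass. Genes of both kinds were among the 6 that rose. KSR1, a scaffold of the cascade, rose from 8.18 to 30.8 CPM, a log2 fold change of 1.91 (edgeR FDR = 6.66e-13), BRAF and MAP2K2 rose by 0.63 and 0.39, and NRAS and MAP2K1 fell by 0.63 and 0.43. In the PI3K-AKT arm 2 of 10 rose, 4 fell and 4 did not pass, with PIK3CD, AKT1 and PIK3R1 falling by 0.83, 0.59 and 0.32 and PIK3R3 rising by 0.49. JAK1, at 0.16, was the 1 gene that passed of 4 in the STAT list.

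Of 20 genes known to be induced through ERK, 13 rose, 3 fell and 4 did not pass, with a median log2 fold change of 0.66 and a called share of 80%. EGR1, an immediate early transcription factor, was at 3.85 and 2.13 CPM in 786-O-Ctrl against 23.4 and 16.6 CPM in 786-O-VHL and rose (log2 fold change 2.57, edgeR FDR = 4.73e-11). DUSP4 and DUSP6, phosphatases that act on ERK, rose by 1.97 and 1.59 on the log2 scale (edgeR FDR = 1.58e-12 and 9.06e-07). The 3 that fell were CXCL8, by 2.88, CCND1 (cyclin D1), from 1200 to 464 CPM and by 1.37, and FOSL1, by 0.24. CCND1 had the highest CPM of these named genes in both groups. The phosphorylation of ERK was not measured in these files.

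**Figure D5:**
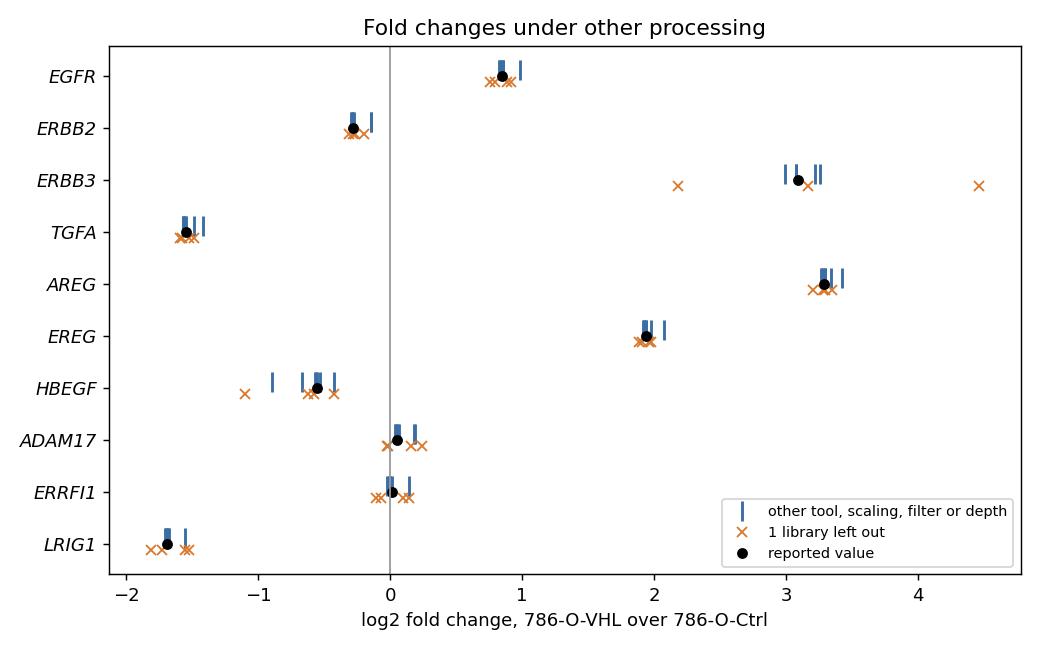
Log2 fold change of each gene as reported (black), with other tools, scalings, filters or depths (blue bars) and with 1 library left out (orange crosses). ERRFI1 and ADAM17 straddle 0, the crosses of ERBB3 reach from 2.18 to 4.46 and those of HBEGF from -1.10 to -0.43, and the other 6 genes stay on 1 side of 0 within narrow ranges.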

How the data were processed

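The data were RNA-seq libraries of 786-O cells, 2 without (786-O-Ctrl) and 2 with restored VHL (786-O-VHL). The authors deposited a single table of read counts by gene, not normalized, made against the hg19 genome. Besides hg19, the submitters' processing notes name CASAVA and STAR. Which counter, strand setting and annotation were used was not given in the sources used here. Depth was between 2807779 and 22141263 counts per library. Both 786-O-Ctrl columns carry the same replicate number and were used as replicates without one. Nothing in the labels says that replicates came from separate cultures, so p-values measure the spread between these libraries. Replicates differed by more than sampling noise (chi-square per degree of freedom 2.25 and 2.76) and each was counted as 1.

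Counts were tested in R 4.3.3 with edgeR 4.0.16, with filterByExpr at a minimum count of 10 (12335 of 12912 genes), TMM scaling, the quasi-likelihood F test on the group alone, and Benjamini-Hochberg adjustment over all genes tested. Standard errors are those the F statistic implies. The study used DESeq2, which was run as an alternative (version 1.42.0), as were limma-voom (limma 3.58.1), other scalings and filters, thinning, each library left out in turn and the threshold of FDR under 0.01 with a 4-fold change. The script was tested on simulated data. Positive log2 fold changes mean a higher level in 786-O-VHL. Exon lengths, coordinates and overlaps come from a GENCODE annotation on GRCh37, which is not the one used for counting, and copies were sought with minimap2 2.31.

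The members, the pathway lists and the markers were chosen with earlier results of these data known. The text names all members and, of each list, at most 3 genes per direction with the largest change at FDR under 0.05. Some genes that this rule names are not reported here. Family ligands and receptors outside the members are each given. Neighbors and overlapping genes were chosen after their values were seen, and no set test was made.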

Additional observations from a re-analysis of the deposited data

How the results depend on the processing

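The directions and calls of EGFR, TGFA, AREG, EREG, HBEGF and LRIG1 were the same under all 11 alternatives run for each. Those of ERBB3 were the same under all 8 that could test it. ERBB3 passed the filter only through 786-O-VHL, so this sameness is not counted as support for its call. With at least 10 counts in every library, after thinning and without 786-O-VHL replicate 2, ERBB3 was not tested. ERBB2 lost its call with library totals alone (-0.15), after thinning (-0.15) and without 786-O-VHL replicate 2, and with 1 library left out its log2 fold change was between -0.31 and -0.20. ERRFI1, which passed in none, had a negative sign with DESeq2 (-0.0064), limma-voom (-0.0036), RLE size factors (-0.0060), no filter (-0.0029) and thinning (-0.027), and a range of -0.11 to 0.14 with 1 library left out, lowest without 786-O-VHL replicate 1 and highest without replicate 2 (-0.072 without the deeper 786-O-Ctrl library). ADAM17 passed with library totals alone (0.19) and ranged from -0.021 without 786-O-VHL replicate 1 to 0.24 without replicate 2 (-0.017 without the deeper 786-O-Ctrl library). The cause of these changes was not tested.

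With the 4-fold threshold, 2 members were higher and 0 lower. The 2 were AREG and ERBB3, and ERBB3 passed the filter only through 786-O-VHL, so its call had to come out that way. Among other pathway genes 2 were higher and 1 lower. Of all genes tested, 360 (2.92%) were higher and 190 (1.54%) lower. At that threshold 0 members were lower by edgeR, while at an FDR under 0.05 alone 4 were lower by edgeR and 4 by DESeq2. Other pathway genes called lower numbered 15 with library totals alone and 18 after thinning, against 28 as reported. With the longest transcript in place of all exons, mean levels in 786-O-Ctrl, then 786-O-VHL, were 49.4 and 88.3 CPM per kb for EGFR, 20.2 and 16.9 for ERBB2, 0.0250 and 0.186 for ERBB3, 156 and 53.8 for TGFA, 7.90 and 76.8 for AREG, 53.5 and 204 for EREG, 19.1 and 11.5 for HBEGF, 231 and 235 for ERRFI1, 11.7 and 12.6 for ADAM17, and 6.44 and 2.09 for LRIG1. All are higher because that length is shorter, by over 1.5 times for EGFR, ERBB2, ERBB3 and ADAM17, which changes the order of some genes. The TGFA share of the 4 ligands in 786-O-Ctrl was 66.0%, and the EREG share went from 22.6% to 59.0% with VHL restoration. No paired analysis was possible because both 786-O-Ctrl columns carry the same replicate number.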
